A study of Mus musculus with 6 samples.

Results

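The forkhead genes of facial mesenchyme described here are *Foxc1*, *Foxc2*, *Foxd1*, *Foxd2*, *Foxf2*, *Foxl2*, *Foxe1*, *Foxp1* and *Foxp2*, 9 of the 38553 genes in the expression table. They were chosen by name, and each name matched 1 gene. RNA-Seq was performed on craniofacial tissue dissected at E12.5 from 3 control embryos, labelled Rbfox2 flox/flox, and 3 *Rbfox2* mutant embryos, labelled Pax3Cre/+:Rbfox2 flox/flox, to ask how loss of the RNA-binding protein Rbfox2 alters gene expression. All 6 embryos thus carry floxed *Rbfox2* alleles and only the mutants carry Cre. Cre is driven from the *Pax3* locus, which is active in the neural crest and also in paraxial mesoderm, and the dissected tissue holds other cells as well. The effects of the Cre knock-in and of *Rbfox2* loss cannot be told apart in this design, and in bulk tissue fewer cells of a type and less RNA per cell cannot be told apart either.

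Forkhead factors are transcription factors that share a winged-helix DNA-binding domain, whose recognition helix lies in the major groove. In the embryonic head *Foxc1* and *Foxc2* act in cranial and periocular mesenchyme and in the meninges and skull, *Foxd1* and *Foxd2* are expressed in crest-derived mesenchyme of the facial processes, and *Foxf2* acts in palatal and tongue mesenchyme downstream of Sonic hedgehog. *Foxl2* is known from eyelid and periocular mesenchyme, the pituitary and the ovary. *Foxe1* is a factor of thyroid and oral epithelium whose loss causes cleft palate, so its best known site is not mesenchyme. *Foxp1* and *Foxp2* belong to a divergent subfamily that binds DNA as dimers and is expressed widely, neurons included.

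The family resemblance of the other 7 members can be read from the coding sequence of the recognition helix, a stretch of 30 bases (10 codons) taken from GENCODE vM21 on GRCm38. It is shown for these 7, picked because their expression values move together, as described below. Bases in capitals differ from *Foxc1*, and each line runs 5′ to 3′ on the coding strand.
Foxc1, chr13:31807577-31807606, plus strand: aacagcatacggcacaacctctcgctcaac
Foxc2, chr8:121116963-121116992, plus strand: aacagcatCcgCcacaacctGtcActcaaT
Foxd1, chr13:98355145-98355174, plus strand: aacagcatCcgTcacaacctGtcgctcaac
Foxd2, chr4:114908270-114908299, minus strand: aaTagcatCcgCcacaacctctcCctcaac
Foxf2, chr13:31626515-31626544, plus strand: aacTCcGtGcgCcacaacctctcgctcaac
Foxl2, chr9:98955946-98955975, plus strand: aaTagcatCcgCcacaacctcAGCctcaac
Foxe1, chr4:46344494-46344523, plus strand: aacagcatCcgCcacaacctcAcCctcaac
Against *Foxc1*, the other 6 genes shown differed at 3 to 6 of 30 bases and kept 9 or 10 of 10 residues. *Foxp1* and *Foxp2*, not shown, differed at 14 and 15 bases and kept 7 of 10 residues. A link between helix sequence and expression was not tested.

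The loci are small except for the FoxP genes. *Foxc1* (ENSMUSG00000050295, chr13:31806633-31812476, plus strand), *Foxc2* (ENSMUSG00000046714, chr8:121116171-121118895, plus), *Foxd1* (ENSMUSG00000078302, chr13:98354242-98359305, plus), *Foxd2* (ENSMUSG00000055210, chr4:114906282-114908873, minus), *Foxl2* (ENSMUSG00000050397, chr9:98955288-98958543, plus) and *Foxe1* (ENSMUSG00000070990, chr4:46343609-46346412, plus) each lie on 1 exon. *Foxf2* (ENSMUSG00000038402, chr13:31625816-31631403, plus) has 2 exons and starts 180.8 kb from *Foxc1*. *Foxp1* (ENSMUSG00000030067, chr6:98925338-99522721, minus) spans 597384 bases with 16 exons in its longest coding transcript, and *Foxp2* (ENSMUSG00000029563, chr6:14901349-15441977, plus) spans 540629 bases with 18 exons. GENCODE lists 31 transcripts for *Foxp1* and 20 for *Foxp2*, which a value per gene does not separate.

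The values are FPKM, fragments scaled by gene length and by all mapped fragments, and summed to between 528123 and 590174 per sample. How many reads lie behind each value is unknown, so no counting error is given. The targeted gene, *Rbfox2*, was at 58.4, 65.0 and 61.3 FPKM in control replicates 1, 2 and 3 and at 38.1, 36.3 and 34.3 in mutant replicates 1, 2 and 3. The groups did not overlap (p = 0.10 in a two-sided exact permutation test, below which 3 against 3 samples cannot go), and the difference in log2(FPKM + 1) was -0.75 (standard error 0.079, adjusted p = 0.138 from limma). The tissue expressed the facial mesenchyme list, with *Prrx1* at a mean of 88.8 FPKM and *Six2* at 87.1, and 21 of its 22 genes had an FPKM over 5 in all samples of a group. The first replicate of each genotype stood apart from the other samples on the first principal component of 10061 genes (-19.1 and -17.0, against 7.55 to 11), which carried 54.7% of the variance. Y-linked genes were expressed in mutant replicates 1 and 2, with *Eif2s3y* at 23.4 and 23.8 FPKM, and were close to 0 in the other 4 samples. These 4 include all 3 controls, so Y-linked expression was unbalanced between the genotypes.

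All 9 forkhead genes were expressed, over a wide range of levels. In order of mean FPKM over the 6 samples (± SD, n = 6) they were *Foxp1* at 27.3 ± 2.34, *Foxp2* at 17.7 ± 1.11, *Foxd1* at 16.4 ± 5.6, *Foxf2* at 15.6 ± 2.69, *Foxc1* at 11.5 ± 2.88, *Foxl2* at 8.37 ± 1.82, *Foxc2* at 8.05 ± 2.32, *Foxd2* at 5.10 ± 1.64 and *Foxe1* at 1.25 ± 0.402. *Foxp1* lay above *Foxp2* and *Foxd2* above *Foxe1* with no overlap of their ranges. The ranges of all other neighbours in this order overlapped, although *Foxf2* exceeded *Foxc1*, *Foxc1* exceeded *Foxl2* and *Foxc2* exceeded *Foxd2* within each of the 6 samples. *Foxp2*, *Foxd1* and *Foxf2* were not separated, with *Foxp2* above *Foxd1* in 4 of 6 samples and *Foxd1* above *Foxf2* in 3 of 6. *Foxl2* and *Foxc2* were not separated either (3 of 6).

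Within the FoxC pair, *Foxc1* was at 14.7, 9.95 and 8.96 FPKM in control replicates 1, 2 and 3 and at 15.6, 9.21 and 10.8 in the mutants. *Foxc2* was at 9.13, 6.85 and 5.31 in the controls and at 12.0, 7.02 and 7.98 in the mutants. For both genes the groups overlapped, and the highest sample of each genotype was its first replicate.

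Within the FoxD pair, *Foxd1* was at 22.1, 13.6 and 10.9 FPKM in the controls and at 24.6, 12.2 and 15.1 in the mutants, the widest spread of the 9 genes in FPKM. *Foxd2* was at 6.74, 4.42 and 3.74 in the controls and at 7.51, 3.55 and 4.63 in the mutants. Again the groups overlapped and the first replicate was the highest of each.

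*Foxf2* was at 16.2, 15.6 and 13.2 FPKM in the controls and at 20.5, 13.5 and 14.3 in the mutants. *Foxl2* was at 10.3, 7.87 and 7.53 in the controls and at 11, 6.61 and 6.95 in the mutants. *Foxe1* was at 1.21, 1.2 and 1.05 in the controls and at 2.03, 1.08 and 0.902 in the mutants. The first replicate was the highest of each genotype for these genes too, by a small margin for *Foxf2* and *Foxe1* in the controls.

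The FoxP genes had another profile. *Foxp1* was at 24.7, 28.8 and 25 FPKM in the controls and at 29.2, 26.0 and 30.0 in the mutants. *Foxp2* was at 17.4, 16.8 and 17.8 in the controls and at 18.1, 16.5 and 19.6 in the mutants. The first replicate was not the highest of either group for these genes, and all samples of *Foxp2* lay within 16.5 to 19.6 FPKM.

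**Figure D1:**
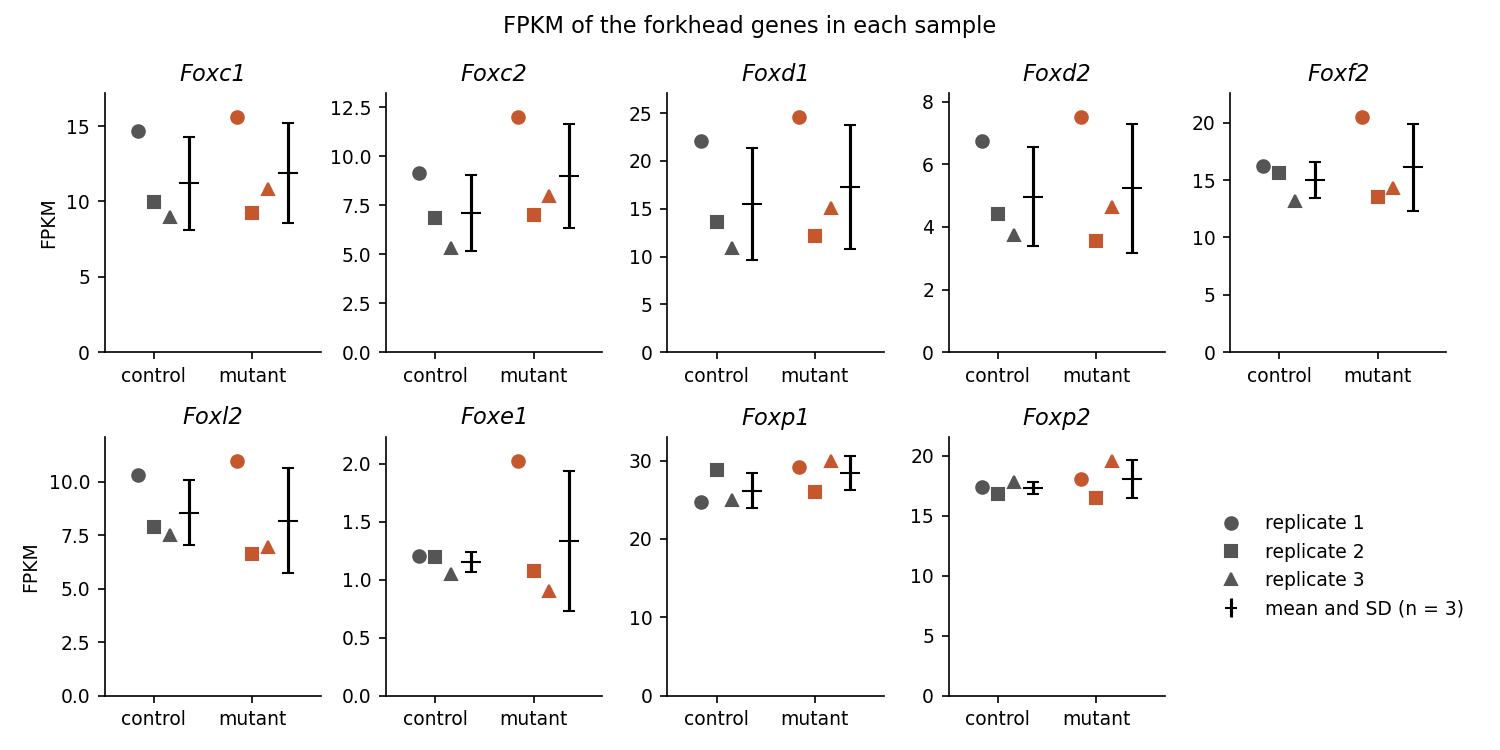
FPKM of the 9 forkhead genes (vertical axes, from 0) in the 3 control and 3 mutant samples, with 1 symbol per replicate number and the mean ± SD of each group (n = 3) in black. Replicate 1 is the highest sample of both genotypes in 7 panels and not in those of *Foxp1* and *Foxp2*, and control and mutant values overlap in each panel.

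No forkhead gene passed the test between genotypes. Genes whose 3 control or 3 mutant values all exceeded 5 FPKM, 10061 in number, were compared as log2(FPKM + 1) by limma, with p-values adjusted after Benjamini and Hochberg, and 7 of the 9 members were among them. No member among the 7 had an adjusted p under 0.05, as none of the 10061 genes did (0.00%), and none of the 7 had an unadjusted p under 0.05, against 167 genes (1.66%). Mutant and control values overlapped for all 9 members, while they did not overlap for 503 genes tested (5.0%). The difference was positive for 8 members and negative for 1, with a median of 0.074 over the 7 that passed, beside 0.0057 over all genes tested. On this scale differences are smaller than the log2 ratio of FPKM, most of all for genes of low FPKM.

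The size of the differences and the range that the data allow were as follows. *Foxc2* had the largest difference, with means of 7.10 ± 1.92 FPKM in controls and 9.0 ± 2.65 in mutants (SD, n = 3), 127% of the control mean. Its difference in log2(FPKM + 1) was 0.30 (standard error 0.23, 95% interval -0.24 to 0.84, adjusted p = 1.0 from limma). *Foxc1* went from 11.2 ± 3.08 to 11.9 ± 3.31 FPKM, a difference of 0.074 (interval -0.46 to 0.61). For these genes, whose functions overlap in several mesenchymal tissues, both intervals include 0.

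*Foxd1* was at 15.6 ± 5.85 FPKM in controls and 17.3 ± 6.47 in mutants, with a difference of 0.14 and the widest interval of the 9 genes, from -0.58 to 0.87. *Foxf2* was at 15.0 ± 1.57 and 16.1 ± 3.85 FPKM, a difference of 0.074 (-0.31 to 0.46). *Foxl2*, the only member that was lower in mutants on average, was at 8.55 ± 1.49 and 8.18 ± 2.43 FPKM, a difference of -0.078 (-0.54 to 0.38). The FoxP genes were measured with the narrowest intervals. *Foxp1* was at 26.1 ± 2.29 and 28.4 ± 2.14 FPKM, a difference of 0.12 (-0.11 to 0.34), and *Foxp2* at 17.3 ± 0.502 and 18.1 ± 1.55 FPKM, a difference of 0.055 (-0.14 to 0.26).

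*Foxd2* and *Foxe1* did not reach an FPKM over 5 in all samples of a group. Fitted with the 13415 genes over 1 FPKM, *Foxd2* (4.97 ± 1.57 and 5.23 ± 2.05 FPKM) differed by 0.043 (-0.58 to 0.67) and *Foxe1* (1.15 ± 0.0888 and 1.34 ± 0.609 FPKM) by 0.089 (-0.33 to 0.51), with adjusted p = 1.0 for both from limma. Exact two-sided permutation tests of single genes gave p between 0.20 for *Foxp1* and 0.90 for *Foxd2* and *Foxe1*.

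Control and mutant samples share replicate numbers, but no litter or day in the labels pairs them. The first replicates deviated together (correlation 0.64). Replicates 2 and 3 were weakly matched, with 0.26 and 0.51 within numbers and 0.40 and 0.23 across them. The comparison was also made within numbers, and its p-values rest on a pairing taken from these same values. With the replicate number as a block, limma gave *Foxc2* the same difference with a standard error of 0.11, a 95% interval from 0.036 to 0.57 and an unadjusted p of 0.0324 (adjusted p = 0.809), the only one of the 7 under 0.05. This fit gave 604 of 10061 genes an unadjusted p under 0.05 (6.0%) and none an adjusted p under 0.05. The mutant excess of *Foxc2* was 0.36, 0.031 and 0.51 in replicates 1, 2 and 3, and no other member was higher in all 3. The other members were higher in mutant replicate 1 and lower in mutant replicate 2 than in the control of the same number, and 6 of these 8 were higher in mutant replicate 3. In the block fit the intervals of the other members still included 0, for example -0.14 to 0.29 for *Foxc1* and -0.14 to 0.43 for *Foxd1*. They were narrower than without the block except for *Foxp1*, whose interval ran from -0.11 to 0.34 in both fits.

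**Figure D2:**
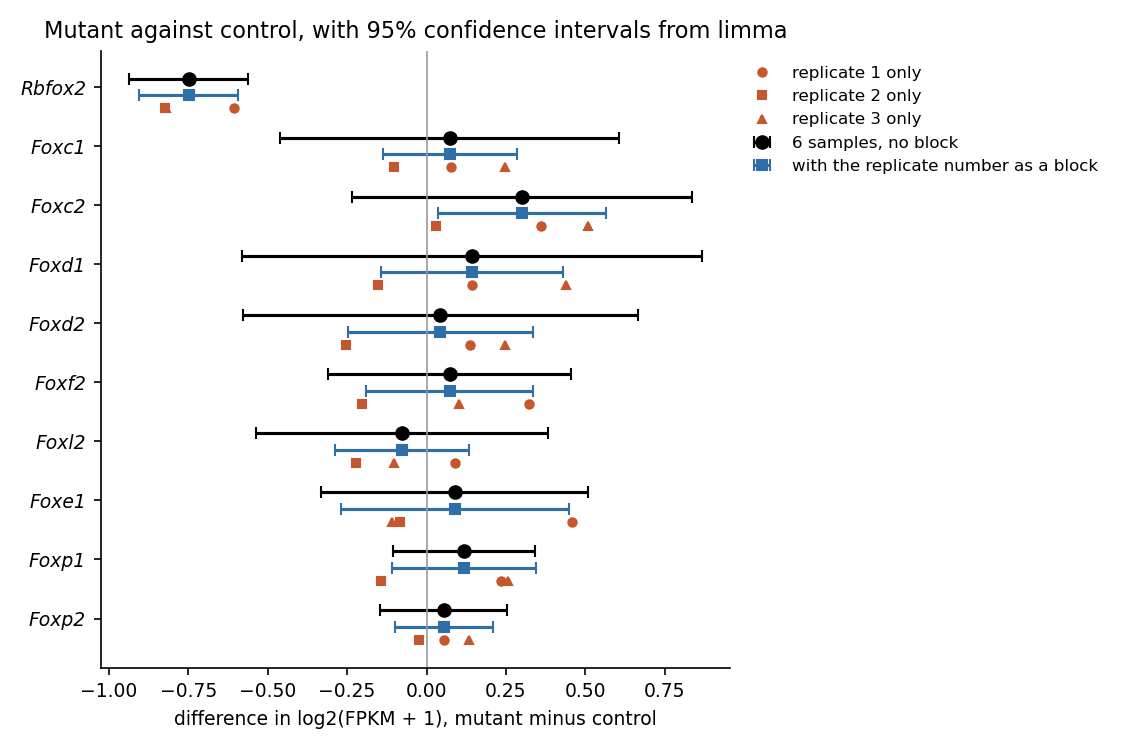
Difference in log2(FPKM + 1), mutant minus control (horizontal axis), for *Rbfox2* and the 9 forkhead genes with 95% confidence intervals from limma without (black) and with (blue) the replicate block, and the difference within each replicate number (orange symbols). The black intervals of all forkhead genes include 0, the blue interval of *Foxc2* runs from 0.036 to 0.57, and that of *Rbfox2* stays below 0.

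*Foxc2* lies within a longer gene on the same strand, the read-through model *Gm20388* (chr8:119910841-124345722), and the step that assigned reads to them is not described. *Gm20388* was at 2.64, 29.2 and 27.8 FPKM in the controls and at 0.0215, 28.5 and 25 in the mutants, that is, lowest in the first replicates, where *Foxc2* was highest. *Foxc1* and *Foxc2* share a longest identical run of 53 bases, and neither shares 50 bases or more with another annotated gene, *Gm20388* included. *Foxd1*, *Foxd2*, *Foxf2*, *Foxl2* and *Foxe1* share no run of 50 bases or more with the transcripts of any other gene in the annotation. All these runs were sought in the sense direction only, so bases shared with antisense genes are not covered. *Foxp2* shares such runs with 254 genes (the longest of 79 bases) and *Foxp1* with 4 (the longest of 302 bases), and how reads from them were assigned is not described. *Foxl2os*, which overlaps the start of *Foxl2* on the other strand, was at 3.68 to 4.52 FPKM in the controls and at 2.52 to 4.49 in the mutants. *Gm12446*, antisense to *Foxe1*, was at 0.432 to 1.12 and 0.347 to 0.507 FPKM, levels below those of *Foxe1* itself in 5 of the 6 samples. Libraries were stranded, but whether counting used the strand is not stated. *Gm20696*, a read-through model over *Foxp1*, stayed at or below 0.147 FPKM.

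The balance between close relatives was compared within each sample, where differences in scaling between samples cancel. *Foxc1* exceeded *Foxc2* by a ratio of FPKM of 1.61, 1.45 and 1.69 in control replicates 1, 2 and 3 and of 1.30, 1.31 and 1.36 in the mutants. Every mutant ratio was below every control ratio (log2 ratio of FPKM + 1, 0.59 ± 0.097 in controls and 0.37 ± 0.027 in mutants, SD, n = 3), a difference of -0.23 with p = 0.10 in the exact two-sided permutation test, the smallest it can give. This was the only 1 of 3 pairs whose groups did not overlap. *Foxd1* exceeded *Foxd2* by 3.28, 3.09 and 2.92 in the controls and by 3.27, 3.43 and 3.27 in the mutants (log2 difference 0.10, exact permutation p = 0.30). *Foxp1* exceeded *Foxp2* by 1.42, 1.71 and 1.40 in the controls and by 1.61, 1.57 and 1.53 in the mutants (log2 difference 0.062, exact permutation p = 0.50). With 3 pairs compared and 0.10 the smallest p, none could pass 0.05. The ratio of *Foxd1* to *Foxd2* stayed between 2.92 and 3.43 in the 6 samples, while the level of *Foxd1* differed 2.25-fold between its highest and lowest sample.

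**Figure D3:**
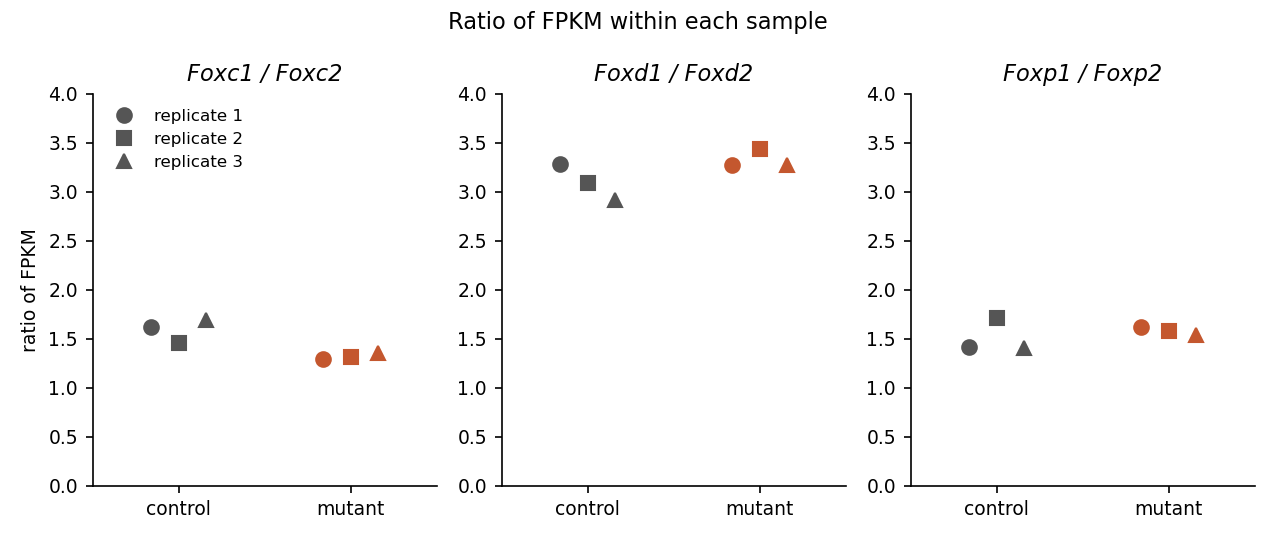
Ratio of FPKM (vertical axes, from 0) within each sample for *Foxc1* to *Foxc2*, *Foxd1* to *Foxd2* and *Foxp1* to *Foxp2*, with 1 symbol per replicate number in control and mutant samples. The 3 mutant *Foxc1* to *Foxc2* ratios lie between 1.30 and 1.36 and the 3 control ratios between 1.45 and 1.69, while the groups overlap in the other pairs.

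The largest variation of the members other than *Foxp1* and *Foxp2* lay between replicates of 1 genotype. The first replicate was the highest of both genotypes in 7 of the 9 members, and in 5 of the 7 that passed the filter, beside 2204 of 10061 genes tested (21.9%). This count was made after the values were seen. *Foxd1* was 1.80-fold higher in the first replicate than in the mean of the others in both genotypes, *Foxc1* 1.56- and 1.55-fold higher in controls and mutants, *Foxd2* 1.65- and 1.84-fold, *Foxc2* 1.5- and 1.60-fold and *Foxl2* 1.33- and 1.62-fold. For *Foxf2* (1.12- and 1.48-fold) and *Foxe1* (1.08- and 2.06-fold) the mutant first replicate stood out more than the control one. *Foxp1* (0.917 and 1.04) and *Foxp2* (1.0 in both) showed no such shift.

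On the log2(FPKM + 1) scale the first replicates of *Foxd1* exceeded the others by 0.81 in both genotypes, those of *Foxc1* by 0.59 in both and those of *Foxc2* by 0.53 and 0.62. These 3 genes exceeded 0.5 in both genotypes, as did 86 of the 10061 genes tested (0.855%), while the median gene tested was lower in the first replicate by a small amount (-0.050 in controls and -0.059 in mutants). The mean first-replicate difference of *Foxd1* was larger than that of 99.6% of genes tested, of *Foxc1* 98.8%, of *Foxc2* 98.7%, of *Foxl2* 98.1% and of *Foxf2* 94.7%, whereas *Foxp1* and *Foxp2* stood at 54.6% and 60.6%. The genotype difference of *Foxd1*, 0.14, was therefore small beside a spread between replicates of 0.81.

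**Figure D4:**
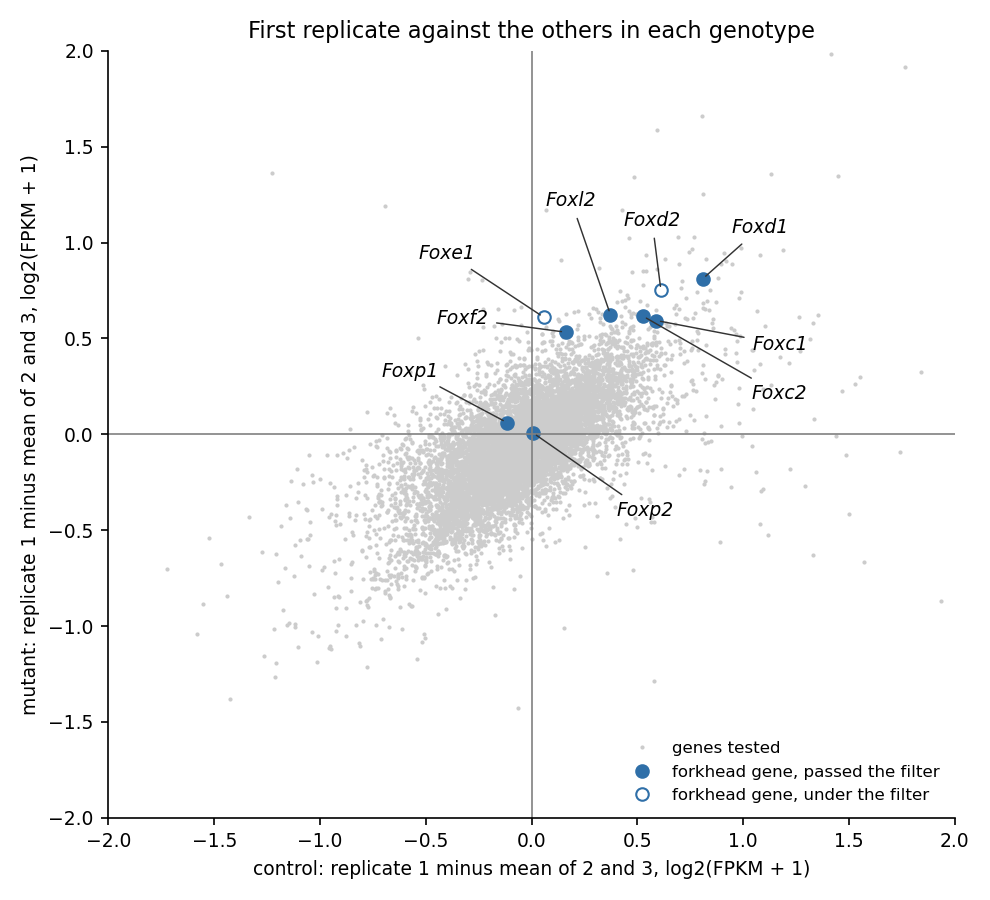
Replicate 1 minus the mean of replicates 2 and 3 in log2(FPKM + 1) in controls (horizontal axis) and mutants (vertical axis), for the genes tested (grey, with 7 genes beyond the axes) and the 9 forkhead genes (blue, open where under the filter). *Foxd1*, *Foxd2*, *Foxc1* and *Foxc2* lie over 0.5 on both axes, *Foxl2*, *Foxf2* and *Foxe1* over 0.5 in mutants only, and *Foxp1* and *Foxp2* near 0.

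Over the 6 samples the 7 members other than *Foxp1* and *Foxp2* therefore moved together. This is given as a description, since all pairs share the first replicates that stand apart. Pearson's r of log2(FPKM + 1) (n = 6) was 0.996 between *Foxc1* and *Foxd1*, 0.992 between *Foxc1* and *Foxd2*, 0.987 between *Foxd1* and *Foxd2* and 0.921 between *Foxc1* and *Foxc2*. *Foxf2* had r = 0.872 with *Foxc1* and 0.923 with *Foxe1*, and *Foxl2* had r = 0.943 with *Foxd2* and 0.760 with *Foxc2*. With the FoxC and FoxD genes *Foxe1* had lower r, from 0.716 with *Foxc1* to 0.756 with *Foxc2*. *Foxp1* had r from -0.032 with *Foxl2* to 0.397 with *Foxf2* among these 7 genes, and 0.504 with *Foxp2*.

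Among all genes tested, *Foxc1* was the second most like *Foxd1* (r = 0.996), after *Fam43a* (r = 0.996), and *Fam210b* and *Naf1* were most like *Foxc1* (both r = 0.996). *Snai1*, a repressor of epithelial genes in mesenchymal cells, and *Zfp451* were most like *Foxf2* (r = 0.990 and 0.992). *Smad5*, a transducer of BMP signals, and *AC163097.1* were most like *Foxl2* (both r = 0.996), and *1810012K08Rik* and *3110053B16Rik* most like *Foxc2* (r = 0.989 and 0.987). *Foxp1* was most like *Nudt22* and *Mdfi* (both r = 0.976), and *Foxp2* most like *Wdr76* and *Bzrap1* (both r = 0.982). These are the highest r of 10061 genes over only 6 samples.

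GC content, which played no part in choosing the genes, divided them along the same line. The transcripts of the 7 genes with high first replicates were rich in G and C, from 54.4% for *Foxd1* and 55.9% for *Foxc1* through 59.8% for *Foxf2*, 60.8% for *Foxl2*, 62.0% for *Foxc2* and 62.7% for *Foxd2* to 62.8% for *Foxe1*. *Foxp1* (44.9%) and *Foxp2* (42.6%) lay in the lower part of the range, above 22.4% and 12.3% of genes tested. In 5 groups of genes of equal size by GC content, the first replicate was the highest of both genotypes in 33.5% of genes in the group of highest GC content and in 13.8% to 25.1% of the others. The median first-replicate difference in that group was 0.033 in controls and 0.023 in mutants. *Foxd1* and *Foxc1* fell in the group from 52.3% to 56.1% GC, where the first replicate was the highest of both genotypes in 18.4% of genes. *Foxp1* and *Foxp2* fell in groups where this share was 17.3% and 25.1%. The part of GC content in the first-replicate levels of the forkhead genes was not tested.

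Promoters of *Foxc1*, *Foxd1*, *Foxd2*, *Foxf2*, *Foxl2* and *Foxp1* were found in the RefSeq table of 300-base windows (250 before and 50 after a start, GRCm38.p6). The windows of *Foxc1* and *Foxd1*, the pair with the closest profiles, are shown up to the base before the start in GENCODE, on the plus strand, with CCAAT and GGGCGG on either strand in capitals.
Foxc1, chr13:31806396-31806632: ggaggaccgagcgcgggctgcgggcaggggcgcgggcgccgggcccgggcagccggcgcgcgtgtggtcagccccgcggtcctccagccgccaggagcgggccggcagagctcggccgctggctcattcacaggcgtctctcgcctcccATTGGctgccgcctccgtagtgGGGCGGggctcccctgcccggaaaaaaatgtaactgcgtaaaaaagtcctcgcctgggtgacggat
Foxd1, chr13:98353995-98354241: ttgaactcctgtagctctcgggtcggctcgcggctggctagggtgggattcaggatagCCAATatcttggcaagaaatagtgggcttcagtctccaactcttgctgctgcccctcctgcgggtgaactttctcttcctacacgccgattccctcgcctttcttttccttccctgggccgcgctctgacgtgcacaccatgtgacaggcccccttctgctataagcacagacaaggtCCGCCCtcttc
Each stretch holds 1 CCAAT and 1 GGGCGG (the GC box) on one or the other strand. They differ in CpG content, with 29 CpG in the 237 bases of *Foxc1* and 12 in the 247 bases of *Foxd1*. GGGCGG was found on either strand in a window of all 6 genes, and in 35.7% of 32851 windows of the table. CCAAT was found for *Foxc1*, *Foxd1* and *Foxp1*, and in 37.4% of all windows. TATAAA (13.6% of windows), the forkhead core TGTTTAC (3.65%) and the Gli site TGGGTGGTC (0.253%) were not found in the windows of these genes. CCAAT and GGGCGG share no base in the stretches shown, and a match describes these letters only.

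The starts of 60 other genes lay within 200 kb of a member start. Those with a mean FPKM over 5, and members near each other, were *Foxf2* for *Foxc1* and the reverse, *Foxf1* (8.52 FPKM) and *Mthfsd* (21.5) for *Foxc2*, *Utp15*, *Ankra2* and *Btf3* for *Foxd1*, *Cmpk1*, *Stil* and *Pdzk1ip1* for *Foxd2*, *Faim* for *Foxl2*, *Xpa*, *Anp32b* and *Nans* for *Foxe1* and *Eif4e3* for *Foxp1*. None of them had an unadjusted p under 0.05 in limma. *Pdzk1ip1* had the largest difference, 0.45 (standard error 0.21, unadjusted p = 0.070 and adjusted p = 1.0 from limma). *Btf3*, 37.2 kb from *Foxd1*, was at 428, 579.9 and 589 FPKM in the controls and at 418, 611 and 604 in the mutants. Its first replicates were thus the lowest where those of *Foxd1* were the highest. The first replicate was the lowest of both genotypes in 3854 of 10061 genes tested (38.3%), *Btf3* among them.

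The other forkhead genes of the table were compared in the same way. Of 35, 12 passed the filter and none had an unadjusted p under 0.05 in limma. Among the highest were *Foxp4* at a mean of 48.9 FPKM, *Foxm1*, a factor of dividing cells, at 37.5 and *Foxk2* at 35.6. *Foxo4* (22.7), *Foxn3* (17.8), *Foxj3* (15.5), *Foxk1* (11.4), *Foxo3* (10.5), *Foxf1* (8.52), *Foxo1* (6.82), *Foxj2* (5.77) and *Foxo6* (5.42) were also over 5. *Foxj2* was at 5.56, 6.96 and 6.43 FPKM in controls and 5.36, 5.55 and 4.74 in mutants, the only one of the 12 whose groups did not overlap, with a difference of -0.23 (standard error 0.10, unadjusted p = 0.060 and adjusted p = 1.0 from limma). With the replicate block its unadjusted p was 0.0474 (adjusted p = 0.824 from limma). *Foxn3* was at 36.3 FPKM in control replicate 3 and at 11.1 to 17.3 in the other 5 samples.

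In this wider family the first replicate was the highest of both genotypes in 5 of the 12 genes tested, *Foxp4*, *Foxm1*, *Foxj3* and *Foxf1* among them, beside the 21.9% of all genes. The first-replicate differences of these 4 in log2(FPKM + 1) ran from 0.068 to 0.26 in controls and from 0.11 to 0.21 in mutants. *Foxf1*, the relative of *Foxf2* beside *Foxc2*, was higher in the first replicate by 0.10 in controls and 0.17 in mutants, where *Foxf2* was higher by 0.16 and 0.53.

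**Figure D5:**
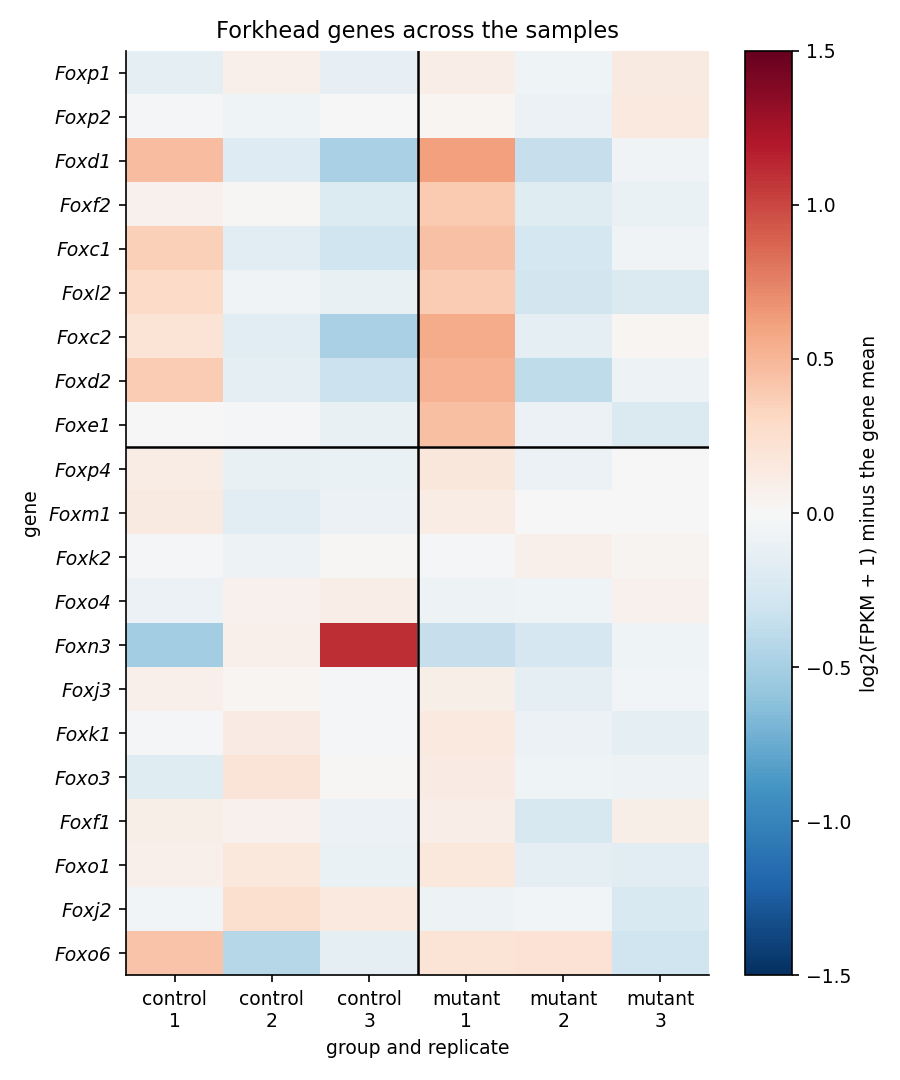
Level of each forkhead gene in log2(FPKM + 1) minus its mean over the 6 samples (colour scale, red above and blue below the mean), for the 9 members (above the line, by mean FPKM) and 12 other forkhead genes with a mean FPKM over 5. The first replicates are red in both genotypes for *Foxc1*, *Foxc2*, *Foxd1*, *Foxd2* and *Foxl2*. For *Foxf2* and *Foxe1* the first replicate is clearly red in the mutants only. *Foxp1* and *Foxp2* are pale in all samples, and *Foxn3* stands out in control replicate 3.

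The hedgehog pathway, which acts upstream of *Foxf2* and the FoxD genes in the face, was measured with 15 genes, of which 11 passed the filter and none had an unadjusted p under 0.05. Their median difference was -0.12, beside 0.0057 over all genes tested. The transducer *Smo* differed by 0.0076 and the coreceptor *Gas1* by -0.12. The target and receptor *Ptch1* was at 20.2, 24.1 and 23.0 FPKM in the controls and at 23.1, 21.1 and 23.0 in the mutants. With the replicate block, limma gave 2 of the 11 an unadjusted p under 0.05, beside 6.0% of all genes tested. Both were lower in the mutants, *Gas1* among them (adjusted p = 0.817 from limma). *Gas1* was at 85.8, 61.7 and 59.3 FPKM in the controls and at 77.5, 58.3 and 53.5 in the mutants. Like the members other than *Foxp1* and *Foxp2*, it was highest in the first replicates.

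Markers of cell types were set beside the members. Of the 22 facial mesenchyme genes, 5 of the 21 tested had their highest value in the first replicate of both genotypes, *Six2* and *Msx1* among them, and the summed level of the list was 863, 922 and 877 FPKM in control replicates 1, 2 and 3 and 943, 768 and 849.8 in the mutant ones. This sum was lowest in the first replicate of the controls and highest in that of the mutants, whereas *Foxc1*, *Foxc2*, *Foxd1* and *Foxd2* were highest in both. The sum for periocular mesenchyme and meninges was lower in the first replicates (524 and 544 FPKM) than in the others (663 to 763), and most of it came from *Col3a1* (209 and 220.0 against 258 to 378) and *Crabp2* (143 and 157 against 203 to 260.0). Over the 10 genes of that list tested, the median first-replicate difference in log2(FPKM + 1) was -0.14 in controls and 0.058 in mutants, so the list as a whole had no single direction. The sums for skeletal muscle (161 and 152 against 184 to 409) and epithelium (177 and 186 against 187 to 294) were lowest in the first replicates as well. Forebrain progenitor genes summed to 343 FPKM in control replicate 1 and to 150.4 to 281 in the other samples, so the forebrain sum was not high in both first replicates. Their part in the forkhead values was not tested.

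Between genotypes, neuron markers were higher in the mutants, with sums of 864 to 931 FPKM in controls and 1000.3 to 1106 in mutants. In limma 4 of 12 had an unadjusted p under 0.05, beside 1.66% of all genes tested, all higher, with none past the adjusted threshold. With the replicate block 7 of the 12 did, all higher and again none past the adjusted threshold. *Foxp1* and *Foxp2*, which neurons also express, differed by 0.12 and 0.055, and the part of neurons in these values was not tested. None of the tested genes of the facial mesenchyme, periocular, epithelium, forebrain, endothelium, muscle, cartilage and bone or pituitary lists had an unadjusted p under 0.05, with median differences of -0.072, -0.11, -0.18, 0.16, 0.0064, -0.40, -0.037 and -0.18. With the replicate block, which gave 6.0% of all genes an unadjusted p under 0.05, 5 of 6 muscle genes, 2 of 11 epithelium genes (*Krt14* and *Krt5*) and 1 of 10 periocular genes (*Aldh1a2*) did so, all lower in the mutants, and none had an adjusted p under 0.05 in limma. The part of these cell types in the forkhead values was not tested. *Pou1f1*, which defines pituitary lineages, was listed at 0 in all 6 samples, and *Hesx1* and *Lhx4* stayed under 1 FPKM, while *Foxl2* was at 6.61 to 11.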

How the data were processed

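Poly(A)+ stranded libraries of 3 control and 3 mutant embryos were made and sequenced together by the authors, who aligned the paired-end reads with STAR to GRCm38. The annotation release, the versions of STAR and Cuffdiff and the step that made the gene table are not given in the sources used here. The values they deposited are FPKM for each gene in each sample, which the 6 single-sample tables repeat without a difference. The 10061 genes whose 3 control or 3 mutant values exceeded 5 were tested on log2(FPKM + 1) by limma 3.58.1 (R 4.3.3), using its intensity trend without covariates, with Benjamini-Hochberg adjustment across the genes tested. No count test was run, since FPKM are not counts. Exact permutation tests used scipy 1.17.1. The limma step was tested on simulated data.

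Across genes, control and mutant samples numbered 1, 2 and 3 deviated from their group means with correlations of 0.64, 0.26 and 0.51. The numbers were taken as pairs in the block fit, although only the first replicates were clearly matched. The pairing comes from these values, not from a litter or day in the labels, and it is weakest for replicate 2, since mutant replicate 2 correlated more with control replicate 3 (0.40) and control replicate 2 correlated with mutant replicate 3 at 0.23. Sequences came from GENCODE vM21 and RefSeq, and 95.0% of gene identifiers were found in GENCODE. The members, gene lists and tests were chosen with earlier results of these data known. Named genes are the members, *Rbfox2*, the 2 highest genes of a list unless the list is described, other forkhead genes and genes within 200 kb with a mean FPKM over 5, and the 2 genes most like each tested member. Alternatives changed the pseudocount, scaling, filter or trend, added a replicate block, a term for first replicates or a Y-linked covariate, or left samples out. Some genes and sequences are not reported here.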

Additional observations from a re-analysis of the deposited data

How the results depend on the processing

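The 9 forkhead genes were refitted under 16 alternatives each, 144 values in all, and 123 kept their direction. No member had an adjusted p under 0.05 in limma under any of them (lowest 0.487). *Foxc2* and *Foxp1* stayed positive throughout, although the Y-linked covariate lowered *Foxc2* from 0.30 to 0.17 (standard error 0.34). This covariate also lowered *Foxd1* to 0.011 and *Foxl2* to -0.26, and raised *Foxp1* to 0.20 and *Foxp2* to 0.17. With the mean of the Y-linked genes as a covariate, the difference turned to -0.024 for *Foxc1*, -0.060 for *Foxd2*, -0.070 for *Foxf2* and -0.19 for *Foxe1*, and with replicates 2 and 3 only to -0.0028 for *Foxd2*, -0.050 for *Foxf2* and -0.095 for *Foxe1*. With each sample left out in turn, the difference ran from -0.12 to 0.27 for *Foxc1*, 0.095 to 0.48 for *Foxc2*, -0.13 to 0.41 for *Foxd1*, -0.21 to 0.25 for *Foxd2*, -0.10 to 0.18 for *Foxf2*, -0.29 to 0.047 for *Foxl2*, -0.11 to 0.22 for *Foxe1* and -0.0026 to 0.11 for *Foxp2*. The lowest values of *Foxc1*, *Foxd1*, *Foxd2*, *Foxf2* and *Foxe1* came without mutant replicate 1, that of *Foxp2* without mutant replicate 3, and the highest of *Foxl2* without control replicate 1.

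The number past the adjusted threshold, 0 of 10061 genes, rose to 3 with a term for the first replicates, to 4 with replicates 2 and 3 only and to between 0 and 1 with 1 sample left out, none of them a member. The count past an unadjusted p of 0.05, 167, became 304 with a filter of 1 FPKM, 663 with no filter, 604 with the replicate block, 611 with a term for the first replicates and 1103 with replicates 2 and 3 only. With 1 sample left out it ran from 78 without control replicate 2 to 649 without control replicate 1, and was 413 without mutant replicate 1 and 108 without mutant replicate 2. The replicate block changed no other call of a member than that of *Foxc2* at the unadjusted threshold. The log2 ratio of *Foxc1* to *Foxc2* differed by -0.28 to -0.19 with 1 sample left out. The causes were not tested, and with FPKM alone the depth behind low values such as those of *Foxe1* cannot be given.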
